A study of Homo sapiens with 10 samples.

Results

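The 40 genes described here encode the proteins that bring glucose into the cell, break it down to pyruvate and lactate and set the pace of that pathway, together with targets and regulators of the response to low oxygen. They were taken from the count table by Ensembl gene identifier, through symbols of GENCODE 44, and all 40, annotated as protein-coding, were found among its 60448 genes. Expression was measured by mRNA sequencing in untreated cells of EA.hy926 and HMEC-1, with 5 biological replicates (libraries) of each line. EA.hy926 arose by fusion of umbilical vein endothelium with A549, a lung carcinoma line, and HMEC-1 came from microvascular endothelium of the skin immortalized with the large T antigen of SV40. EA.hy926 cells were kept in Advanced DMEM with serum. HMEC-1 cells were kept in MCDB 131 with a higher share of serum and with hydrocortisone and EGF. Both were grown to confluence. Line and medium therefore cannot be told apart. Each group is a single established line, so the p-values measure the spread between samples of that line and not between donors. No hypoxia or glucose treatment was part of the comparison. The paper does not give the glucose content of the media, so the glucose supply may have differed between the lines.

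Glycolysis converts glucose to pyruvate in a chain of cytosolic reactions and yields ATP without oxygen, and endothelial cells are known to draw most of their energy from it. Several of its steps are carried out by isoenzymes from related genes. Hypoxia-inducible factors (HIF) are dimers of an alpha subunit, HIF1A or EPAS1, with the constitutive partner ARNT. When oxygen is present, prolyl hydroxylases of the EGLN family mark the alpha subunits for VHL-dependent degradation, and when it is scarce the dimers bind DNA and raise transcription of many glycolytic genes. This regulation acts mainly on the alpha subunit protein, which RNA-seq does not measure.

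EA.hy926 libraries held 34846046 to 39899324 counts, and those of HMEC-1 33391640 to 43877224. Expression is given as CPM, the count of a gene relative to its library's size, after TMM scaling, a correction for library composition, as mean ± SD over 5 libraries unless library values are given, in the order of replicates 1 to 5. The log2 fold change (log2FC) is positive where EA.hy926 was higher. A gene was called differentially expressed (a DEG) at an adjusted p under 0.05 in edgeR's quasi-likelihood test, with Benjamini-Hochberg adjustment over all 16310 genes tested, and an absolute log2FC over 1. In bulk RNA, a lower level in every cell and fewer cells with the transcript cannot be told apart.

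The endothelial markers were present in both lines, with exceptions. Of 15 endothelial markers, 9 were DEGs higher in EA.hy926 and 2 were DEGs lower (73.3% in all, where 35.5% of all genes tested were DEGs, 19.1% higher and 16.4% lower). Their summed expression was 6568 to 7319 CPM in EA.hy926, where PECAM1 took the most counts, and 2180 to 2253 CPM in HMEC-1, where CDH5 did. Per kb of transcript, ENG had the highest mean level of them in both lines. In EA.hy926, EMCN had at most 2 counts in any library and CLDN5 at most 5, against at least 678 and 51 in HMEC-1. Of 15 epithelial markers, 7 were tested, 2 were DEGs higher in EA.hy926 and 3 were DEGs lower, 71.4% of those tested and read against the same shares of all genes. Another 8 were at or under 3 counts in every library of both lines, the adhesion molecule CDH1 and the lung factor NKX2-1 among them. The summed epithelial expression was 1276 to 1389 CPM in EA.hy926 compared with 429 to 491 CPM in HMEC-1, with KRT7 taking the most counts in both. KRT8 reached 546 ± 21.7 CPM in EA.hy926 compared with 19.2 ± 0.947 CPM in HMEC-1, whereas KRT19 (log2FC -4.71), CLDN7 (-4.54) and CLDN4 (-1.42) were lower in EA.hy926. Whether these differences in cell identity have a part in the results below was not tested.

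Of the 40 genes, 38 had enough counts to be tested, and 10 of these (26.3%) were DEGs, against 35.5% of all genes tested. The 3 DEGs higher in EA.hy926 were the pyruvate kinase gene PKM, the lactate dehydrogenase subunit LDHB and the phosphofructokinase regulator PFKFB2, where 19.1% of all genes tested were called in that direction. The 7 DEGs lower in EA.hy926 were the glucose transporter SLC2A1, the aldolase ALDOC, the enolase ENO2, the pyruvate dehydrogenase kinases PDK1 and PDK3, the hypoxia target ANKRD37 and the HIF alpha subunit EPAS1, against a background of 16.4%. Scaled by library totals instead of TMM, 2 of the genes were DEGs higher and 8 lower, and among all genes 2809 higher and 3085 lower, in place of 3110 and 2674. With no limit on fold change, 35 of the 38 (92.1%) had an adjusted p under 0.05, 14 of them higher and 21 lower in EA.hy926, where 85.8% of all genes tested did. The CPM ranges of the lines did not overlap for the same number of genes, 35 of 38, beside 77.4% of all genes tested. Most of these differences were small. The median absolute log2FC of the genes was 0.49, next to 0.65 over all genes tested. Of the 38, 21 (55.3%) differed by less than 0.5, beside 40.7% of all genes tested. Their median log2FC was -0.16 and that of all genes tested -0.01.

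**Figure D1:**
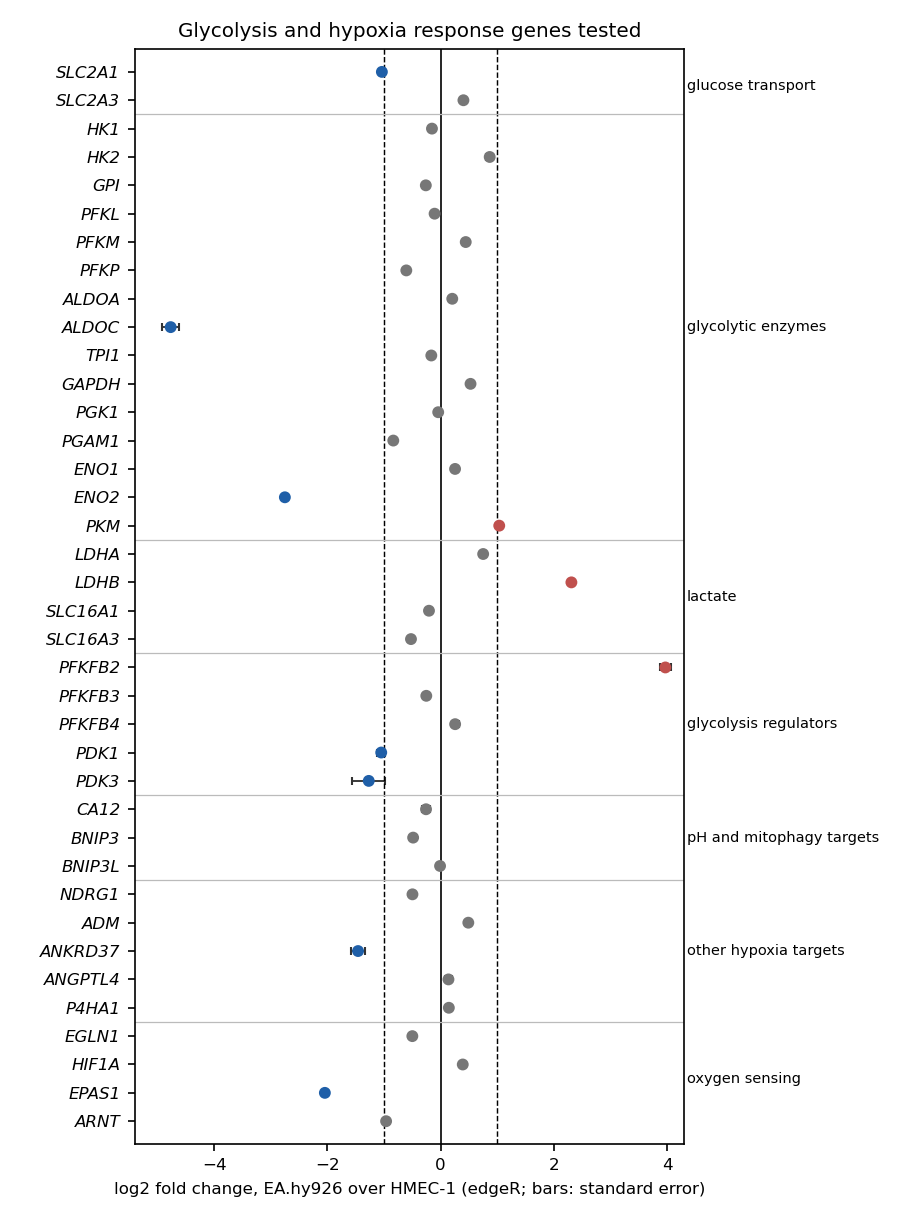
Log2FC of EA.hy926 over HMEC-1 from edgeR for the 38 genes tested, grouped by role. Bars are standard errors, dashed lines mark an absolute log2FC of 1, and red and blue points are DEGs higher and lower in EA.hy926. The 3 red and 7 blue points lie in 6 of 7 roles, and most grey points lie near 0.

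**Figure D2:**
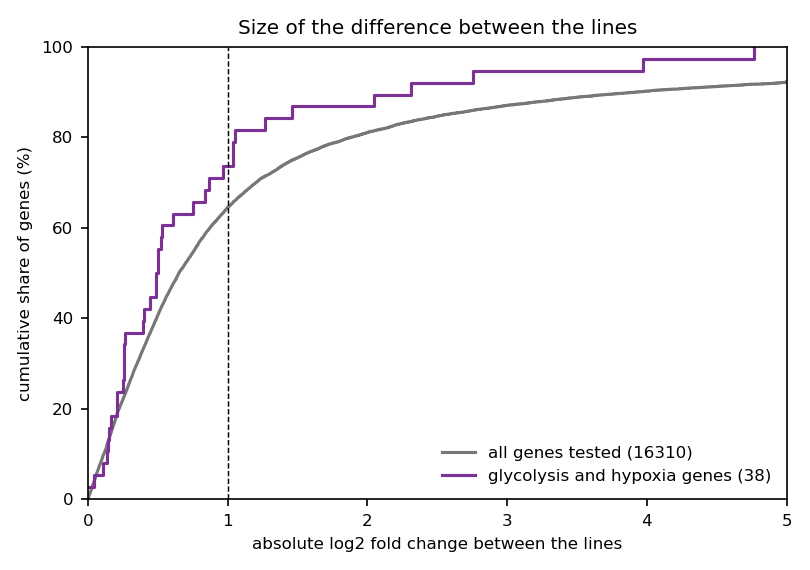
Cumulative share of genes (%) by absolute log2FC between the lines, for the 38 genes tested (purple) and all 16310 genes tested (grey). The axis ends at an absolute log2FC of 5. At the dashed line of 1 the purple curve is above the grey one.

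The promoters of the DEGs are shown because the core of the HIF binding site is short and can be read directly in them. The 250 bases before each annotated start in RefSeq (GRCh38.p14) were searched on both strands for ACGTG and GCGTG, the 2 forms of that core, and for CACGTG, the E-box, which reads the same on both strands and so holds ACGTG on each of them. A window was found for 35 of the 40 genes, and for SLC2A3, SLC16A1, PFKFB2, BNIP3L and NDRG1 none was used. ACGTG occurred in at least 1 window of 21 of the 35 genes (60%), and in 21.7% of all 27305 genes with a window. GCGTG occurred in 18 (51.4%), against 36.2% of all genes, and CACGTG in 8 (22.9%), against 7.73%. Some of these genes have several windows. Counted by window, 38.7% of 62 windows held ACGTG, against 18.5% of 35116, while GCGTG was found in 32.3% and 32.2%. Of the DEGs with a window, ACGTG was present in 5 of the 7 lower in EA.hy926 and in 0 of the 2 higher, PKM and LDHB. It was present in 15 of the 24 genes tested that were not DEGs. A match is a description of the sequence and not evidence of binding. The windows of the 6 DEGs with a match are given in 5′ to 3′ direction of the gene, with the matches in capitals as ACGTG or GCGTG, or as CACGT and CACGC where the match is on the opposite strand. They lie at chr17:28576896-28577145 (minus strand) for ALDOC, chr4:185396591-185396840 (plus) for ANKRD37, chr12:6914330-6914579 (plus) for ENO2, chr2:172555840-172556089 (plus) for PDK1, chrX:24465036-24465285 (plus) for PDK3 and chr2:46297157-46297406 (plus) for EPAS1.
ALDOC: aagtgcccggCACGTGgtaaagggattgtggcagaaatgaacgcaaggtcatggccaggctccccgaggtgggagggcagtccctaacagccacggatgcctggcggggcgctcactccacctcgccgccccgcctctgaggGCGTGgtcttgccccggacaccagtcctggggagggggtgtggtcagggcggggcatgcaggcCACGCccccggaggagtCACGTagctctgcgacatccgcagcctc
ANKRD37: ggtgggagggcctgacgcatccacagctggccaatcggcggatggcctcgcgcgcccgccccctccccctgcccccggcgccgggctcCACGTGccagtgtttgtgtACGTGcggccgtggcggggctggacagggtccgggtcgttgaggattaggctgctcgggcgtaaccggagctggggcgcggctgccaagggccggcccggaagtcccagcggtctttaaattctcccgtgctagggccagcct
ENO2: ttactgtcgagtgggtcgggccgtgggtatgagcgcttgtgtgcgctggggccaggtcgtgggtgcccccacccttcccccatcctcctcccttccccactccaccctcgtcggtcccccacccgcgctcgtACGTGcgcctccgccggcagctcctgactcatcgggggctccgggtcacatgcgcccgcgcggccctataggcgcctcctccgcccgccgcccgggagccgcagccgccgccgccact
PDK1: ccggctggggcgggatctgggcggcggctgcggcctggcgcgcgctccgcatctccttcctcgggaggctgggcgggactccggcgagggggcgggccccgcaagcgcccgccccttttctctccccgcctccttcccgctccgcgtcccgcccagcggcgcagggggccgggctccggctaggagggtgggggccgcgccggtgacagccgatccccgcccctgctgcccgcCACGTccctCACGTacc
PDK3: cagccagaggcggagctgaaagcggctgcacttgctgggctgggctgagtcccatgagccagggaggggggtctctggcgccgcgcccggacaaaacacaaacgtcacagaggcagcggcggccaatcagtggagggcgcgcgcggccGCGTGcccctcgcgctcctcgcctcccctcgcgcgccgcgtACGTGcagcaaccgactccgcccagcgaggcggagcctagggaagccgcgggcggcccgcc
EPAS1: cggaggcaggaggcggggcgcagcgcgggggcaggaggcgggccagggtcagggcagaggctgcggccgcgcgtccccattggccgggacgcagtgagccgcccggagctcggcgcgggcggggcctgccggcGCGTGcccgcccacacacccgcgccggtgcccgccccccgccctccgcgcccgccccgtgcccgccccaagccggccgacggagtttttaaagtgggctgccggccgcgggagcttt
ALDOC and ANKRD37 each hold a CACGTG, which starts 240 and 162 bases before the start site. ANKRD37 has a further ACGTG whose capitals begin 143 bases before the start. ENO2 has a single ACGTG at 118 bases. PDK1 has 2 matches on the opposite strand at 17 and 8 bases, in 1 of its 2 windows. PDK3 holds GCGTG at 102 bases and ACGTG at 61 bases. EPAS1 holds GCGTG alone, at 117 bases. The window of SLC2A1, the other DEG lower in EA.hy926, holds none of these letters, which says nothing of sites elsewhere.

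The carriers that admit glucose differed in opposite directions. SLC2A1 (GLUT1), the basal glucose transporter of many cell types, lies on chromosome 1 (42925353 to 42958893, minus strand). Its libraries gave 46.0, 50.3, 49.1, 50.1 and 54.4 CPM in EA.hy926 compared with 100.4, 103, 104, 104 and 101 CPM in HMEC-1. Every HMEC-1 library was above every EA.hy926 library, and the level was lower in EA.hy926 (log2FC -1.04, SE 0.035, adjusted p = 3.4e-17). SLC2A3 (GLUT3), a high-affinity transporter best known from neurons, was higher in EA.hy926 at 46.3 ± 1.76 CPM, against 35.0 ± 1.79 CPM (log2FC 0.40, SE 0.039, adjusted p = 3.2e-09). The log2 ratio of SLC2A1 to SLC2A3 within a library was 0.11 ± 0.13 in EA.hy926 and 1.55 ± 0.071 in HMEC-1, a difference of -1.44. Per kb of transcript, SLC2A1 made up 54.9% ± 2.20 of the level of these transporters in EA.hy926 and 76.8% ± 0.892 in HMEC-1.

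For pairs of related genes, such ratios within a library hardly depend on its scaling. Of 12 ratios computed, 11 differed between the lines with a p of 0.00794 in a two-sided exact permutation test, the lowest value possible with 5 libraries per line (0.00866 after adjustment over the 12 pairs). The exception was the ratio of PDK1 to PDK3, described with these kinases. A p of 0.00794 means only that the libraries of the lines did not overlap in the ratio. The CPM ranges of the lines did not overlap for 77.4% of all genes tested singly. Ratios of other gene pairs were not computed, so the 11 of 12 have no background of their own.

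**Figure D3:**
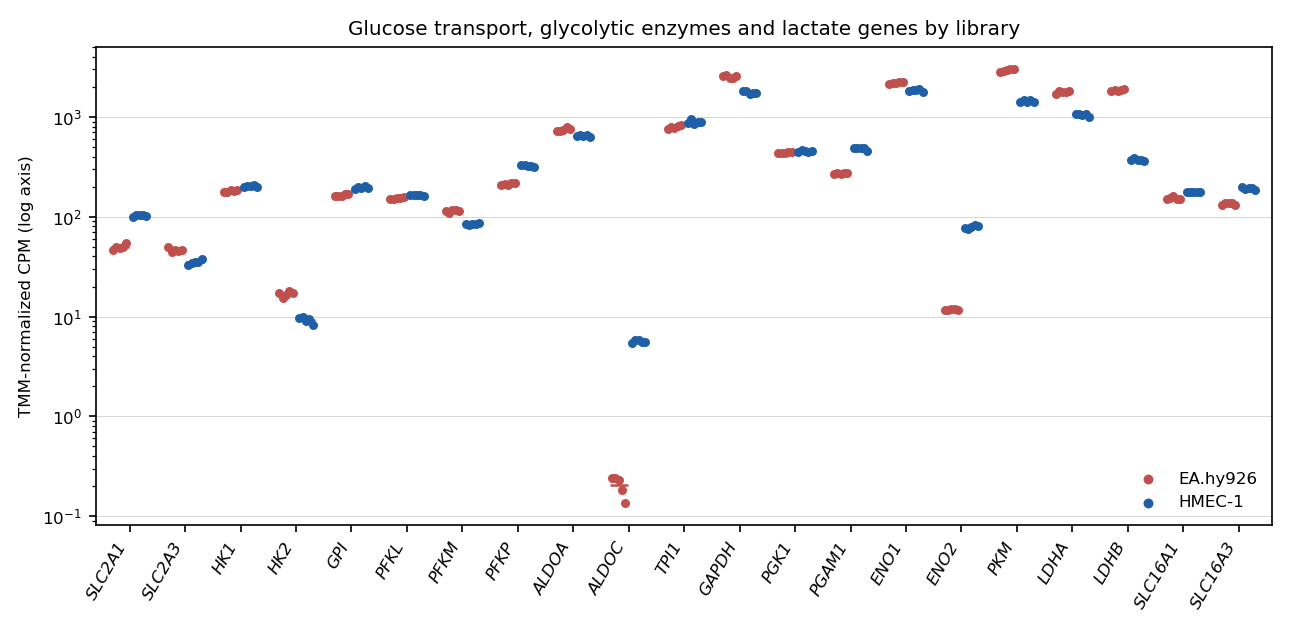
TMM-normalized CPM (log axis) of the genes of glucose transport, glycolysis and lactate in each of 5 libraries of EA.hy926 (red) and HMEC-1 (blue). A short line marks the mean. The points of a line lie close together for nearly every gene, ALDOC, ENO2 and LDHB are furthest apart between the lines, and those of PGK1 overlap.

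Of the 15 genes for the enzymes of glycolysis, 3 (20%) were DEGs, where 35.5% of all genes tested were. An adjusted p under 0.05 in edgeR's test was found for 14 (93.3%), 6 of them higher and 8 lower in EA.hy926, near the 85.8% of all genes tested. Hexokinases trap glucose as its phosphate. HK1, the constitutive form, was 181 ± 3.38 CPM in EA.hy926 compared with 201 ± 4.05 CPM in HMEC-1 (log2FC -0.15, SE 0.024, adjusted p = 5.5e-06). HK2, the inducible form, gave 17.1, 15.4, 16.6, 18.1 and 17.1 CPM in EA.hy926 compared with 9.61, 9.90, 9.06, 9.54 and 8.19 CPM in HMEC-1. The lines did not overlap and HK2 was higher in EA.hy926, by less than the fold change threshold (log2FC 0.87, SE 0.059, adjusted p = 1.1e-11). HK1 nevertheless made up most of the hexokinase transcript per kb, as HK2 accounted for 5.64% ± 0.283 in EA.hy926 and 2.87% ± 0.192 in HMEC-1. With the length of all merged exons in place of the canonical transcript, these shares were 9.79% and 5.08%. GPI, which interconverts the phosphates of glucose and fructose, was lower in EA.hy926 by a log2FC of -0.26 (164 ± 3.65 and 196 ± 4.58 CPM).

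Phosphofructokinase commits sugar to glycolysis and is built from liver (PFKL), muscle (PFKM) and platelet (PFKP) type subunits. PFKP was 206, 211, 209, 219.8 and 218 CPM in EA.hy926 compared with 329, 329, 323, 324 and 317 CPM in HMEC-1 (log2FC -0.61, SE 0.025, adjusted p = 1.2e-15). PFKM was 115, 109, 118, 117 and 114 CPM in EA.hy926 compared with 84.0, 83.2, 84.8, 83.9 and 85.7 CPM in HMEC-1 (log2FC 0.44, SE 0.026, adjusted p = 9.2e-13). PFKP was thus lower and PFKM higher in every EA.hy926 library, and PFKL differed by a log2FC of -0.11. PFKP had the highest level per kb of the subunits in both lines, with 47.5% ± 0.595 of their sum in EA.hy926 and 59.5% ± 0.365 in HMEC-1. PFKM took 21.7% ± 0.572 in EA.hy926 and 13.2% ± 0.270 in HMEC-1.

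Aldolase splits the sugar bisphosphate. ALDOA, the main form, was 748 ± 25.7 CPM in EA.hy926 compared with 649 ± 12.8 CPM in HMEC-1 (log2FC 0.21, SE 0.026, adjusted p = 2.3e-07). Of its exonic bases, 54.2% also lie in exons of other genes. ALDOC, the brain type, on chromosome 17 (28573115 to 28576948, minus strand), gave 0.244, 0.241, 0.228, 0.182 and 0.135 CPM in EA.hy926, from 5 to 9 counts, and 5.48, 5.88, 5.79, 5.59 and 5.60 CPM in HMEC-1. It was the gene with the largest absolute log2FC of the 38 and was close to the detection limit in EA.hy926 (log2FC -4.77, SE 0.15, adjusted p = 7.1e-18). ALDOC remained a minor form in both lines, with 0.0282% ± 0.00707 of the aldolase level per kb in EA.hy926 and 0.883% ± 0.0230 in HMEC-1.

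The middle steps differed in both directions. TPI1, which interconverts the triose phosphates, had a log2FC of -0.16, with 792 ± 25.1 CPM in EA.hy926 compared with 888 ± 37.8 CPM in HMEC-1. GAPDH, the oxidizing step, was 2546 ± 90.6 CPM in EA.hy926 compared with 1765 ± 50.2 CPM in HMEC-1 (log2FC 0.53, SE 0.027, adjusted p = 7.2e-14), although 65 annotated pseudogenes bear its name and could take or give reads. PGK1, the first ATP-forming enzyme of the pathway, gave 439.7 ± 3.43 CPM and 453 ± 8.18 CPM, and was the only glycolytic enzyme gene that did not pass the test (log2FC -0.04, SE 0.022, adjusted p = 0.0769), which it did with limma-voom, library totals, no filter on low counts or without HMEC-1 replicate 1, 4 or 5. PGAM1, a phosphoglycerate mutase, was lower in EA.hy926 at 271 ± 3.46 CPM, against 484 ± 15.2 CPM (log2FC -0.84, SE 0.025, adjusted p = 5.8e-18), and has 13 named pseudogenes. Its EA.hy926 libraries all lay below the lowest HMEC-1 library.

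Enolases make phosphoenolpyruvate. ENO1, the ubiquitous form, was somewhat higher in EA.hy926 (2193 ± 47.2 against 1838 ± 44.3 CPM, log2FC 0.26, SE 0.024, adjusted p = 1.9e-09). ENO2, known as neuron-specific enolase, on chromosome 12 (6913745 to 6923698, plus strand), gave 11.6, 11.5, 11.8, 11.997 and 11.7 CPM in EA.hy926 compared with 77.7, 75.1, 78.9, 82.0 and 80.9 CPM in HMEC-1. The lines were far apart, 6.74-fold, and the libraries within each were close (log2FC -2.75, SE 0.036, adjusted p = 3.8e-24). The log2 ratio of ENO2 to ENO1 differed by -3.00 between the lines. PKM, which encodes the pyruvate kinase of most tissues, lies on chromosome 15 (72199029 to 72231819, minus strand). Its libraries gave 2833, 2915, 2924, 3019 and 3041 CPM in EA.hy926 compared with 1424, 1476, 1409.8, 1463 and 1414 CPM in HMEC-1. PKM was higher in all EA.hy926 libraries (log2FC 1.04, SE 0.025, adjusted p = 9.1e-20), only just past the fold change threshold, and scaled by library totals instead of TMM it was not, at a log2FC of 0.90. The counts do not separate its splice forms.

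Levels of different genes are comparable per kb of transcript only. On this scale GAPDH had the highest level of the enzymes in both lines, 1981 ± 70.5 CPM per kb in EA.hy926 and 1374 ± 39.0 in HMEC-1. In EA.hy926 it was followed by PKM (1278 ± 36.7) and ENO1 (1231 ± 26.5), whose libraries overlapped. In HMEC-1 it was followed by ENO1 (1032 ± 24.9), and then by TPI1 (657 ± 28.0) and PKM (624 ± 13.1), which overlapped. The summed expression of the 15 enzyme genes was 10577 to 11034 CPM in EA.hy926 compared with 8429 to 8789 CPM in HMEC-1. As a share of all counts in a library, with no scaling, it was 0.996% to 1.06% and 0.884% to 0.913%. GAPDH, ENO1 and PKM together reached 7546 to 7867 CPM in EA.hy926 compared with 4939 to 5168 CPM in HMEC-1. The summed level of the 15 was higher in every EA.hy926 library, although 8 of the 15 genes were lower. The higher sum came from GAPDH, ENO1 and PKM, as the other enzyme genes together summed to less in every EA.hy926 library than in any HMEC-1 library. These sums are of CPM and not per kb, so genes with long transcripts weigh more in them.

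The more abundant lactate dehydrogenase subunit was not the same in the lines, and both subunits were higher in EA.hy926. This enzyme interconverts pyruvate and lactate as a tetramer of LDHA and LDHB subunits, of which the LDHA form is classically found in skeletal muscle and the LDHB form in heart. LDHA gave 1703, 1799, 1767, 1761 and 1817 CPM in EA.hy926 compared with 1058, 1080.0, 1048, 1059 and 1010.1 CPM in HMEC-1 (log2FC 0.75, SE 0.025, adjusted p = 2.4e-17). LDHB, on chromosome 12 (21635342 to 21757857, minus strand), gave 1805, 1869, 1837, 1844 and 1894 CPM in EA.hy926 compared with 371, 391, 368, 372 and 363 CPM in HMEC-1 (log2FC 2.31, SE 0.025, adjusted p = 2.1e-25). Both were higher in every EA.hy926 library, LDHB 4.96-fold. The log2 ratio of LDHA to LDHB was -0.064 ± 0.012 in EA.hy926 and 1.49 ± 0.022 in HMEC-1, a difference of -1.56 (two-sided exact permutation test, p = 0.00794, n = 5 and 5). Per kb of transcript, LDHB was the larger part in EA.hy926 (64.3% ± 0.186) and LDHA in HMEC-1 (62.1% ± 0.351). Another annotated gene, ENSG00000285854, covers 33.4% of the exonic bases of LDHB, and whether reads there were counted for LDHB is not given in the sources used here.

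Lactate leaves and enters cells through monocarboxylate transporters. SLC16A1 (MCT1) was 154 ± 3.81 CPM in EA.hy926 compared with 177 ± 1.43 CPM in HMEC-1 (log2FC -0.21, SE 0.024, adjusted p = 7.7e-08). SLC16A3 (MCT4), the form tied to lactate export from glycolytic cells, was 134 ± 2.60 CPM in EA.hy926 compared with 193 ± 5.72 CPM in HMEC-1 (log2FC -0.52, SE 0.026, adjusted p = 4.6e-14). Both were lower in EA.hy926 by less than the fold change threshold. The log2 ratio of SLC16A3 to SLC16A1 differed by -0.32.

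**Figure D4:**
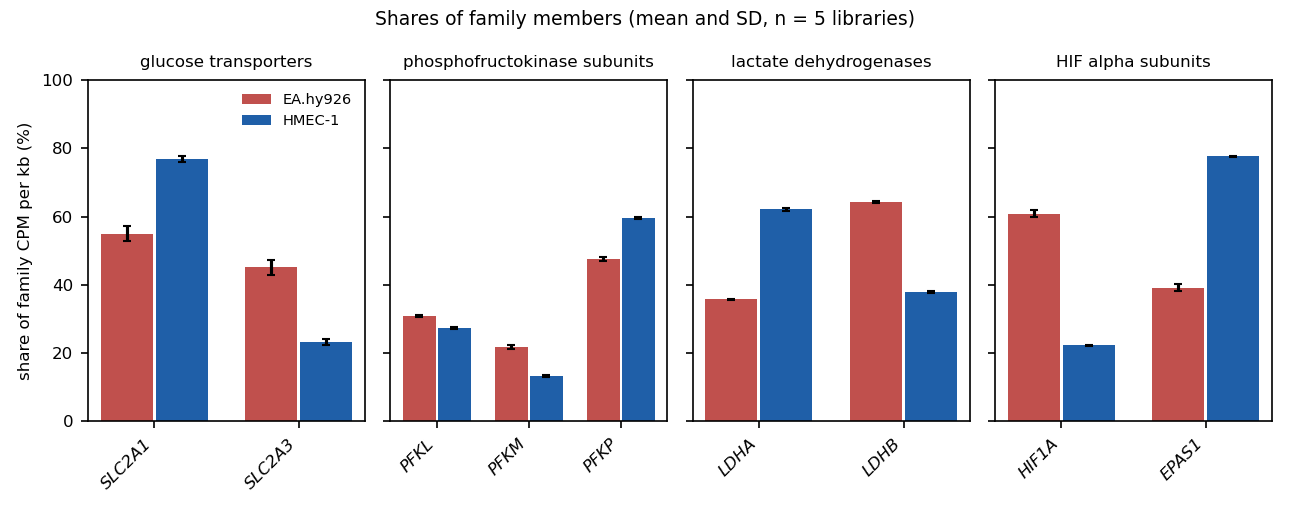
Share (%) of each gene in the summed CPM per kb of its family, for glucose transporters, phosphofructokinase subunits, lactate dehydrogenases and HIF alpha subunits. The last are HIF1A and EPAS1 only. Bars are means and whiskers SD over 5 libraries of EA.hy926 (red) and HMEC-1 (blue). The larger member differs between the lines for the lactate dehydrogenases and the HIF alpha subunits, whereas SLC2A1 and PFKP lead in both.

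Among 5 genes that regulate flux, 3 were DEGs (35.5% of all genes tested) and all 5 had an adjusted p under 0.05 in edgeR's test (85.8% of all genes tested). Enzymes of the PFKFB family make and degrade the sugar bisphosphate that activates phosphofructokinase. PFKFB2, the form abundant in heart, on chromosome 1 (207034366 to 207081024, plus strand), gave 12.5, 12.4, 12.2, 11.1 and 10.9 CPM in EA.hy926 compared with 0.656, 0.858, 0.694, 0.638 and 0.916 CPM in HMEC-1. It was 15.7-fold higher in EA.hy926 (log2FC 3.97, SE 0.10, adjusted p = 3.1e-19), from 23 to 35 counts per HMEC-1 library. PFKFB3, the form best known from endothelial cells, was 51.8 ± 2.23 CPM in EA.hy926 compared with 61.7 ± 1.27 CPM in HMEC-1 (log2FC -0.25, SE 0.032, adjusted p = 2.6e-07). It had the highest level per kb of the regulators in both lines, with 72.6% ± 0.833 of the PFKFB sum in EA.hy926 and 85.4% ± 0.780 in HMEC-1. PFKFB4, an isoenzyme known from testis and tumours, differed by a log2FC of 0.26 (9.36 ± 0.510 and 7.86 ± 0.419 CPM), and did not pass the test with library totals.

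PDK kinases inhibit pyruvate dehydrogenase and so hold pyruvate back from the mitochondria. PDK1, on chromosome 2 (172555373 to 172608669, plus strand), gave 6.85, 6.81, 6.38, 7.65 and 7.95 CPM in EA.hy926 compared with 13.4, 14.7, 15.4, 16.2 and 14.1 CPM in HMEC-1 (log2FC -1.05, SE 0.069, adjusted p = 5.1e-12). PDK3, on the X chromosome (24465244 to 24550466, plus strand), gave 0.135, 0.211, 0.114, 0.156 and 0.189 CPM in EA.hy926, from 4 to 7 counts, and 0.371, 0.392, 0.499, 0.393 and 0.288 CPM in HMEC-1, from 11 to 23 counts (log2FC -1.27, SE 0.29, adjusted p = 4.1e-04). Both were lower in all EA.hy926 libraries, and PDK3 was the most variable of the 38 genes tested, with a coefficient of variation of 24.4% in EA.hy926 and 19.4% in HMEC-1. The log2 ratio of PDK1 to PDK3 was 5.09 ± 0.23 in EA.hy926 and 5.08 ± 0.22 in HMEC-1 and did not differ detectably (difference 0.0037, exact permutation test p = 0.968). These ratios include a prior count of 2, which weighs most on PDK3 in EA.hy926 and draws the lines together. The closeness of the means is therefore partly set by the prior, and the edgeR log2FC of PDK1 and PDK3 were -1.05 and -1.27. SLC2A1, PKM, PDK1 and PDK3 were not called when the test asked for a log2FC beyond 1 rather than different from 0 (glmTreat), which left 6 DEGs among the 38 genes and 5021 among all 16310.

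Of the targets that deal with pH and mitochondria, 3 were tested and 0 were DEGs in edgeR's test, DESeq2 or limma-voom, where 35.5% of all genes tested were in edgeR's. An adjusted p under 0.05 was found for 2 (66.7%), the same 2 as without adjustment, beside 85.8% of all genes tested. CA9 is a membrane carbonic anhydrase widely used as a marker of hypoxia. None of the EA.hy926 libraries had a count of it, the HMEC-1 libraries had 5 to 13, and the filter on low counts removed it. Against the floor of 3 counts per library, 0.0781 to 0.0904 CPM in EA.hy926, the level of CA9 was lower in EA.hy926 by at least 2.52-fold, and such a floor covers counting error only. Of the exonic bases of CA9, 35.7% also lie in exons of ARHGEF39. CA12, a related anhydrase, was 6.81 ± 0.519 CPM in EA.hy926 compared with 8.14 ± 0.174 CPM in HMEC-1 (log2FC -0.26, SE 0.066, adjusted p = 0.00113). The mitophagy receptor BNIP3 was lower in EA.hy926 (55.9 ± 1.35 and 78.3 ± 2.34 CPM, log2FC -0.49, SE 0.029, adjusted p = 1.3e-12), with 44 annotated pseudogenes that bear its name. Its relative BNIP3L was 167 ± 3.15 CPM in EA.hy926 compared with 168 ± 4.84 CPM in HMEC-1 and did not pass the test (log2FC -0.01, SE 0.026, adjusted p = 0.716), although it did with library totals.

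The 5 other hypoxia targets held 1 DEG (20%, against 35.5% of all genes tested). ANKRD37, an ankyrin repeat protein, on chromosome 4 (185396021 to 185400628, plus strand), gave 1.19, 1.30, 1.45, 1.30 and 0.997 CPM in EA.hy926 compared with 3.48, 3.48, 3.62, 3.26 and 3.30 CPM in HMEC-1. All EA.hy926 libraries were lower (log2FC -1.46, SE 0.12, adjusted p = 2.1e-10), although UFSP2 covers 40.3% of its exonic bases. NDRG1, a stress response gene, was also lower in EA.hy926 (62.7 ± 1.41 and 88.6 ± 1.499 CPM, log2FC -0.50, SE 0.027, adjusted p = 1.6e-13). ADM, which encodes the vasodilator peptide adrenomedullin, was higher (30.3 ± 2.07 and 21.6 ± 0.747 CPM, log2FC 0.49, SE 0.047, adjusted p = 3.3e-09). So was P4HA1, a subunit of the collagen prolyl hydroxylase, by a log2FC of 0.15, but with library totals the log2FC of P4HA1 was 0.0101 and did not pass the test. ANGPTL4, an inhibitor of lipoprotein lipase, gave 41.0, 40.8, 41.1, 48.1 and 47.6 CPM in EA.hy926 compared with 41.7, 43.5, 39.9, 41.2 and 32.4 CPM in HMEC-1. These ranges overlapped and ANGPTL4 did not pass the test (log2FC 0.14, SE 0.064, adjusted p = 0.0504). This value lies at the threshold, and ANGPTL4 passed with RLE factors, with either other filter, with the replicate block, and without EA.hy926 replicate 1, 2 or 3 or HMEC-1 replicate 2.

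**Figure D5:**
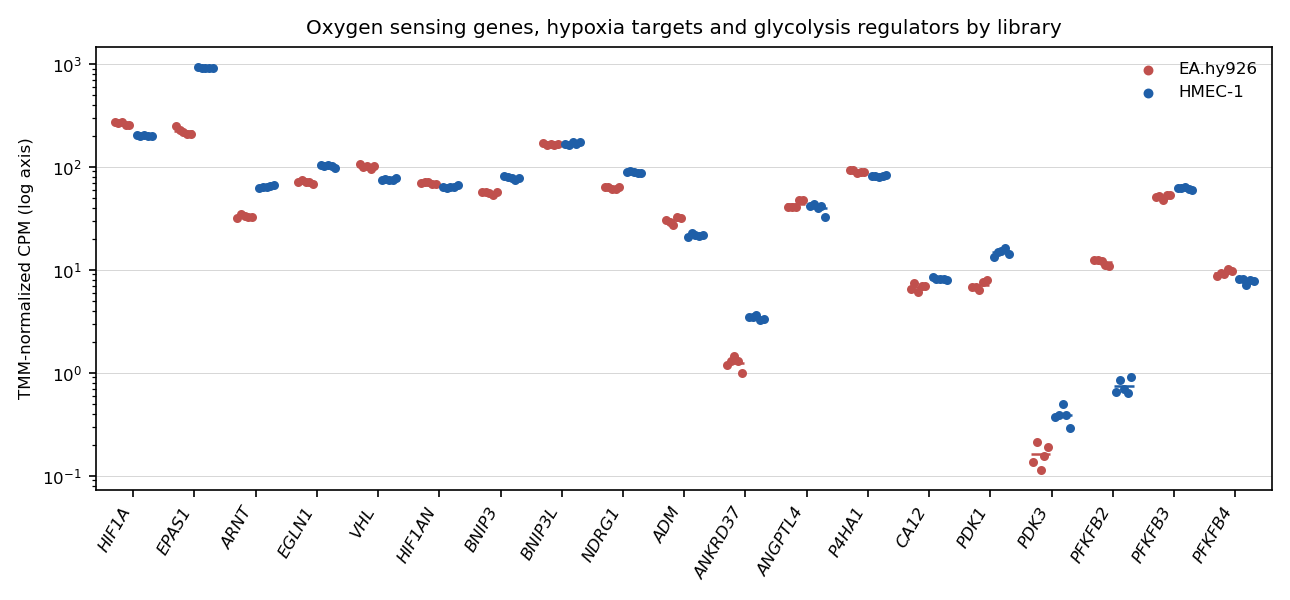
TMM-normalized CPM (log axis) of oxygen sensing genes, hypoxia targets and regulators of glycolysis in each of 5 libraries of EA.hy926 (red) and HMEC-1 (blue), with VHL and HIF1AN for comparison. A short line marks the mean. EPAS1, PFKFB2 and ANKRD37 are widely separated between the lines, and BNIP3L and ANGPTL4 overlap.

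Of the 4 oxygen sensing genes tested, all had an adjusted p under 0.05 in edgeR's test, 1 higher and 3 lower in EA.hy926, and 1 was a DEG, beside 85.8% and 35.5% of all genes tested. EPAS1, the alpha subunit with high expression in endothelium, lies on chromosome 2 (46293667 to 46386697, plus strand). It gave 248, 228, 217, 210.2 and 209 CPM in EA.hy926 compared with 928, 917, 919, 906 and 919 CPM in HMEC-1, which is 4.13-fold lower in EA.hy926 with no overlap (log2FC -2.05, SE 0.037, adjusted p = 6.1e-22). HIF1A, the widely expressed alpha subunit, gave 274, 269, 271, 254 and 253 CPM in EA.hy926 compared with 205, 201, 204, 198 and 199.5 CPM in HMEC-1, modestly higher in EA.hy926 (log2FC 0.39, SE 0.027, adjusted p = 1.4e-11). The log2 ratio of EPAS1 to HIF1A was -0.25 ± 0.066 in EA.hy926 and 2.19 ± 0.013 in HMEC-1, a 5.42-fold difference (two-sided exact permutation test, p = 0.00794, n = 5 and 5). Per kb, HIF1A made up 60.8% ± 1.09 of the sum of HIF1A and EPAS1 in EA.hy926 and 22.3% ± 0.154 in HMEC-1. ARNT, the shared partner, gave 31.6, 35.1, 33.002, 32.4 and 32.7 CPM in EA.hy926 compared with 62.7, 63.5, 64.3, 64.7 and 66.0 CPM in HMEC-1. It was lower in every EA.hy926 library, just short of the fold change threshold (log2FC -0.96, SE 0.032, adjusted p = 3.6e-17), and scaled by library totals instead of TMM it was a DEG at a log2FC of -1.10.

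The oxygen sensors are themselves hypoxia targets. EGLN1, the main prolyl hydroxylase in normal oxygen, was 71.6 ± 2.44 CPM in EA.hy926 compared with 101 ± 2.27 CPM in HMEC-1 (log2FC -0.50, SE 0.029, adjusted p = 5.4e-13), with 55.8% of its exonic bases covered by another gene, ENSG00000287856. EGLN3 had no count in EA.hy926 and at most 7 in a library of HMEC-1, was not tested, and is given no fold. Of 14 further regulators of the HIF pathway, 13 were tested, 11 had an adjusted p under 0.05 and 1 was a DEG (84.6% and 7.69%, against 85.8% and 35.5% of all genes tested). VHL, which targets the hydroxylated alpha subunits for degradation, was 101 ± 3.25 CPM in EA.hy926 compared with 75.2 ± 1.42 CPM in HMEC-1 (log2FC 0.43). HIF1AN, the asparagine hydroxylase that restrains HIF activity, differed by a log2FC of 0.13. The DEG was HIF3A, an alpha subunit with isoforms that inhibit the others. It gave 0, 0.0904, 0.256, 0.0520 and 0 CPM in EA.hy926, from 0 to 9 counts, and 31.5, 30.5, 29.3, 30.4 and 31.3 CPM in HMEC-1 (log2FC -8.57, SE 0.17, adjusted p = 3.3e-21). Replicate 3 held the 9 counts, and 2 EA.hy926 libraries had none, whereas every HMEC-1 library had at least 1103.

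Further hypoxia targets outside the 40 genes did not share a direction. Of 29, all were tested and 28 (96.6%) had an adjusted p under 0.05, beside 85.8% of all genes tested. Of these 28, 18 were higher and 10 lower in EA.hy926, where all genes tested gave 6940 higher and 7057 lower. The median log2FC of the 29 was 0.20. Among them 6 were DEGs higher in EA.hy926 and 5 were DEGs lower. These 11 DEGs (37.9%) are close to the 35.5% of all genes tested, of which 19.1% were higher and 16.4% lower. With at least 10 counts in every library, 24 of these targets were tested, and 5 were DEGs higher and 1 was a DEG lower. Among all genes that filter gave 1857 higher and 1398 lower. AK4, CXCR4, PPFIA4, RAB20 and VLDLR had too few counts for it. The highest log2FC were those of CITED4, a transcription cofactor (2.83, 50.2 ± 3.60 against 7.05 ± 0.640 CPM), TMEM45A (2.57) and the chemokine receptor CXCR4 (2.27). The collagen lysyl hydroxylase PLOD2 (1.87), STC2 (1.46) and MXI1 (1.22) followed. The lowest belonged to AK4 (-7.44), a mitochondrial adenylate kinase, with at most 3 counts per EA.hy926 library and an HMEC-1 level of 7.28 ± 0.420 CPM. With 3 counts taken as the EA.hy926 level, AK4 was 80.6-fold lower there. That value does not cover the counting error of libraries with counts above 0. VLDLR (-5.83) and RAB20 (-5.26) had at most 4 and 11 counts per EA.hy926 library. The mTOR inhibitor DDIT4 was -3.06 (8.19 ± 0.826 against 68.6 ± 2.43 CPM) and PPFIA4 -2.77. VEGFA, the angiogenic growth factor, had a log2FC of 0.20 (18.95 ± 1.41 and 16.6 ± 1.54 CPM, edgeR adjusted p = 0.00552).

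Of 36 further genes of glycolysis and pyruvate metabolism, 25 were tested, 23 had an adjusted p under 0.05 and 13 (52%) were DEGs, 7 higher and 6 lower in EA.hy926, beside 35.5% DEGs and 85.8% with such a p among all genes tested. The highest was the monocarboxylate transporter SLC16A7 (MCT2, log2FC 9.18), at 16.4 ± 1.35 CPM in EA.hy926 and at most 2 counts in any HMEC-1 library. With the floor of 3 counts taken as the HMEC-1 level, SLC16A7 was 191-fold higher in EA.hy926. It was followed by the related SLC16A8 (2.40) and by HKDC1 (2.33), a hexokinase, both under 1 CPM. The muscle enolase ENO3 (2.14), BPGM (2.09), which draws on a glycolytic intermediate, and the sugar transporter SLC2A12 (1.97) were also higher. Of the exonic bases of SLC2A12, 51.2% also lie in exons of TBPL1. BSG, the chaperone of monocarboxylate transporters, was 1044 ± 15.1 CPM in EA.hy926 compared with 491 ± 10.4 CPM in HMEC-1 (log2FC 1.09), and was not a DEG with library totals, under which PDK4 was. The transporter SLC2A10 and the gluconeogenic enzyme FBP1 had 0 counts in all EA.hy926 libraries, and were at least 45.1-fold and 20.5-fold lower. PCK2 (-1.40), SLC2A6 (-1.19) and the mitochondrial pyruvate carrier MPC2 (-1.02) were also lower, although MPC2 was not called under glmTreat or without EA.hy926 replicate 3 or 4. The pyruvate dehydrogenase subunits PDHA1 and PDHB did not pass the test (adjusted p = 0.0689 and 0.991).

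Within each line the 38 genes varied little. The median coefficient of variation was 3.32% in EA.hy926 and 2.43% in HMEC-1, and it was under 10% for 35 genes in each. All 10 DEGs were also called by DESeq2 and by limma-voom.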

How the data were processed

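Line and replicate of a library come from its label, and columns were matched to libraries by name. The deposited values are raw counts per gene, which the authors made from oligo(dT)-selected mRNA aligned to GRCh38 with HISAT2. The paper's methods name HTSeq for the counting and the submitters' processing notes name featureCounts. The annotation release and the strand setting are not given in the sources used here. Symbols, coordinates and exons came from GENCODE 44 by identifier, which matched 56434 of 60448 genes, and exon overlap on either strand from bedtools 2.31.1.

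Genes were kept by filterByExpr (minimum count 10, minimum total count 15), scaled by TMM (factors 0.943 to 0.964 for EA.hy926, 1.04 to 1.05 for HMEC-1) and tested without covariates by edgeR 4.0.16 (glmQLFit, glmQLFTest; R 4.3.3), with Benjamini-Hochberg adjustment over 16310 genes. Standard errors were derived from log2FC and the F statistic. Ratios of related genes are differences of log2 CPM with a prior count of 2. CPM per kb uses the Ensembl canonical transcript. Permutation tests were run with scipy 1.17.1, under Python 3.11.15 (numpy 2.4.6, pandas 2.3.3). Promoter windows were taken from RefSeq.

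The 40 genes, the further lists, the markers and the tests were chosen with earlier results of these data known. Named in the text were all 40 genes and, of each further list, the up to 3 DEGs with the highest and the up to 3 with the lowest log2FC. Other genes of those lists were named after their values were seen, and results for 2 genes of the lists, which are in the counts, are not reported here. Alternatives were DESeq2 1.42.0, limma-voom (limma 3.58.1), RLE factors, library totals, no filter, at least 10 counts in every library, glmTreat, a replicate block and each library left out, and, added after seeing the data, merged exon length and shares within families. The test was tried on simulated counts. All 10 columns were used.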

Additional observations from a re-analysis of the deposited data

Results flagged for a closer look

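The 40 genes in 2 lines gave 78 groups of 5 libraries, leaving out CA9 and EGLN3 in EA.hy926, which were at 0. In 3 of these groups 1 library lay far from the others by Dixon's criterion, which chance alone meets in about 1 of 20 groups. PGAM1 was lowest in replicate 5 of HMEC-1 at 457 CPM, with the others at 486 to 492 CPM. SLC16A1 was highest in replicate 3 of EA.hy926 at 160.4 CPM, with the others at 151.5 to 152.5 CPM. CA12 was highest in replicate 1 of HMEC-1 at 8.44 CPM, with the others at 7.98 to 8.11 CPM. Each of these values is in a different library, and all 3 genes stayed lower in EA.hy926 when any single library was left out.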

How the results depend on the processing

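The 10 DEGs among the genes were the same 10 under DESeq2, limma-voom, RLE factors and without any single library. Genes near the thresholds depended on the setting. A test against a log2FC of 1 (glmTreat) called 5021 of all genes and 6 of the 38, without SLC2A1, PKM, PDK1 and PDK3. With at least 10 counts in every library 8 were called, since ALDOC and PDK3 were not tested, and with no filter 12, as CA9 and EGLN3 entered. Library totals in place of TMM moved the median log2FC of all genes by -0.135 and exchanged PKM for ARNT, giving 2 DEGs higher and 8 lower, and it turned the split of all DEGs from 3110 higher and 2674 lower to 2809 and 3085. Library totals also took P4HA1 and PFKFB4 out of the genes with an adjusted p under 0.05 and brought in BNIP3L and PGK1, and exchanged BSG for PDK4 among the further glycolysis DEGs. Counts of DEGs among all genes were 3255 with at least 10 counts in every library (13107 genes tested) and 9312 with no filter (33071 tested), and 5945 to 6000 with a library left out. Of the further lists, at least 10 counts in every library left 7 DEGs of glycolysis, 0 HIF regulators and 6 hypoxia targets, and library totals and no filter each gave 2 HIF regulators. With a library left out, the log2FC of BNIP3L ranged from -0.0385 to 0.0037, positive without EA.hy926 replicate 2 or 4, and the difference in the ratio of PDK1 to PDK3 from -0.0661 to 0.0996. MPC2 was no longer a DEG under glmTreat or without EA.hy926 replicate 3 or 4, which left 12 DEGs of the further glycolysis genes. Same-numbered replicates did not deviate together (correlations -0.0228 to 0.0389), and with the replicate number as a block 10 DEGs were called, while the count with an adjusted p under 0.05 went from 35 to 36 with ANGPTL4. A sign-flip test of 5 pairs cannot go below p = 0.0625 (exact), so the ratios were not tested with pairing. At this depth a count of 0 in a library allows up to 3 counts, or 0.0651 to 0.0904 CPM.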

Other observations

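Glycolytic intermediates also feed the pentose phosphate, hexosamine, glycogen and serine branches. Of 16 genes of these branches, 13 were tested, 12 (92.3%) had an adjusted p under 0.05 in edgeR's test and 2 (15.4%) were DEGs, beside 85.8% and 35.5% of all genes tested. Both were higher in EA.hy926, where 19.1% of all genes tested were called in that direction. PYGL, the liver glycogen phosphorylase, was 30.2 ± 2.30 CPM in EA.hy926 compared with 11.8 ± 1.04 CPM in HMEC-1 (log2FC 1.36, SE 0.061, adjusted p = 7.6e-15, n = 5). GFPT2, which opens the hexosamine pathway, was 54.4 ± 1.03 CPM in EA.hy926 compared with 23.5 ± 0.683 CPM in HMEC-1 (log2FC 1.21, SE 0.033, adjusted p = 1.1e-18). Its relative GFPT1 had a log2FC of -0.49. In the pentose phosphate pathway, PGD (0.49) and TALDO1 (0.33) had positive log2FC and TKT (-0.08) a negative one, each with an adjusted p under 0.05. TXNIP, a glucose-responsive inhibitor of glucose uptake, had 32.7 ± 4.09 CPM in EA.hy926 compared with 48.7 ± 1.78 CPM in HMEC-1 (log2FC -0.58).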
